A study of Mus musculus with 12 samples.

Results

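The response of the mouse epididymis to efferent duct ligation was compared between segment 1 and segment 3, the first and the third of the proximal segments sampled. For each gene the measure was the difference of 2 log2 effects, L1 over C1 minus L3 over C3, where L1 and L3 are segments 1 and 3 of ligated epididymides and C1 and C3 are the same segments of control epididymides. A positive difference means that the segment 1 effect lies above the segment 3 effect. All mice were wild type (WT); ligated mice had a suture tied around the efferent ducts just before the caput, and control epididymides had no ligation. The comparison used 8 of the 12 libraries of the series, 2 in each of the 4 groups, and each of the 2 sequencing batches (named 3017 and 3097) held 1 library of every group. Each library was polyadenylated RNA pooled from 2 mice. The sources used here give no time after ligation and no age, and do not say whether controls were sham-operated or whether the segments came from the same mice. Because a library is a pool, the p-values rest on the spread between pools, 2 in each group. This spread was estimated from all 12 libraries, segment 2 included, and drawn towards that of other genes. The p-values also carry any spread between sequencing runs that the batch term did not remove.

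Genes were sorted by which effects passed the test in edgeR's quasi-likelihood fit with Benjamini-Hochberg adjustment over 19213 genes tested; "called" below means an adjusted p under 0.05 in that test. Of these genes 27 had called effects of opposite direction in the 2 segments, 5464 changed in segment 1 only and 79 changed in segment 3 only. A further 32 changed the same way in both segments by different sizes, 305 had a called difference with neither effect called, and 13306 had no called difference.

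The efferent ducts carry sperm and testis fluid into the epididymis, and tying them cuts the epididymis off from both. In the first segment of the mouse epididymis, the initial segment, principal cells depend on factors that arrive in this fluid, a form of signalling called lumicrine. Known steps of it are the receptor tyrosine kinase ROS1, the ERK (MAP kinase) pathway and the ETS factors ETV4 and ETV5, and the initial segment regresses after ligation.

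The 8 libraries held 32955786 to 42313728 counts in genes, and mitochondrial genes took 1.567% to 2.646% of them. Among these 8 the C3 libraries differed from each other more than the other pairs. The chi-square of their counts divided by its degrees of freedom was 22.6 for L1, 29.8 for C1, 44.8 for L3 and 80.1 for C3. The pairs of segment 2, which entered the fit, had 48.3 (ligated, L2) and 115.5 (control, C2). Epcam, Cdh1 and the other markers of the labelled tissue, 15 genes of principal and general epithelial cells, were all among the genes tested, and their summed level was 5000 to 5630 in L1, 3640 to 3930 in C1, 5040 to 5330 in L3 and 4900 to 5110 in C3, in CPM. CPM are counts scaled to the library size, here with factors from the trimmed mean of M values (TMM); all CPM values below are on this scale, and pairs of values give batch 3017 and then batch 3097. Effects and differences are fitted log2 values, given ± SE (standard error).

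The ligation effect differed between the segments for 5907 genes, 30.7% of those tested. The difference was higher for 3088 of them (16.1% of the genes tested) and lower for 2819 (14.7%), and it was at least 2-fold for 3289. With library totals alone in place of TMM factors this split was 4044 higher and 1815 lower, and the median difference over all genes was 0.21 rather than 0.04. In segment 1 ligation changed 9363 genes (48.7%), with 4684 higher and 4679 lower in L1 (24.4% in each direction). In segment 3 it changed 331 genes (1.72%), with 60 higher (0.312%) and 271 lower (1.41%) in L3. The segment 3 count was 70 without the L3 library of batch 3017, 82 without the C3 library of batch 3017 and 132 without the L3 library of batch 3097. The count of differences was 3835 without the L1 library and 3909 without the C3 library of batch 3017. Over all genes the median absolute effect was 0.55 in segment 1 and 0.20 in segment 3, and 5766 genes (30% of those tested) against 2022 (10.5%) had a fitted effect of 2-fold or more. The median SE of an effect was 0.20 in each segment, and that of the difference was 0.28. In the fit all groups share the spread of a gene. Equal SEs therefore do not show that the segments were measured equally well. The adjustment was made for each effect on its own. Before it, the quasi-likelihood test gave p under 0.05 for 10647 genes in segment 1 and 3061 in segment 3.

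Within each batch the difference of effects was also computed on its own, from 1 library per group with a pseudocount of 0.5 CPM. It had the same sign in both batches for 5902 of the 5907 called genes (99.9%), against 15084 (78.5%) of all genes tested; both batches entered the test, so this describes the calls and is no separate check of them. Across the 19213 genes, which are not independent replicates, Pearson's r between the 2 batches was 0.84.

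**Figure D1:**
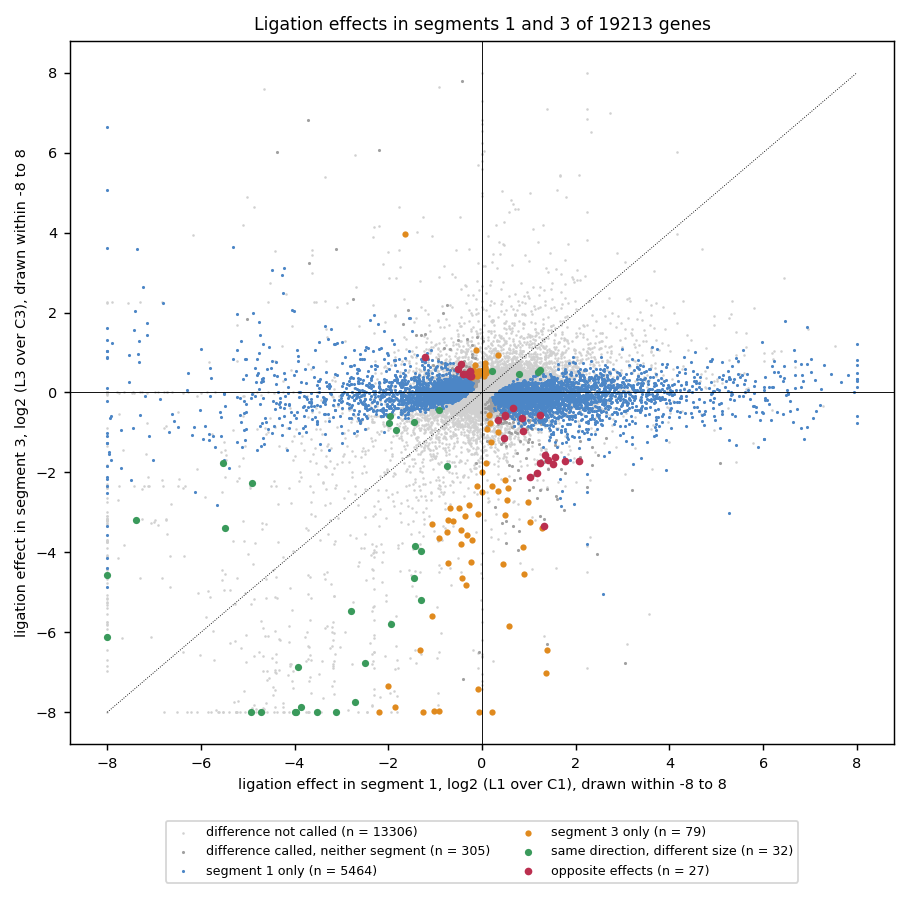
The fitted ligation effect in segment 1 (x axis, log2 of L1 over C1) is plotted against that in segment 3 (y axis, log2 of L3 over C3) for all 19213 genes, coloured by class and drawn within -8 to 8; the dotted line marks equal effects. Most called genes lie along the horizontal axis (segment 1 only, n = 5464), the 79 genes of segment 3 only lie along the vertical axis and mostly below 0, and the 27 opposite genes lie in the upper left and lower right.

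Of the 27 genes with opposite effects, 18 were higher in L1 than C1 and lower in L3 than C3, and 9 were lower in L1 and higher in L3. In all 27 the libraries of L1 and C1 did not overlap, nor did those of L3 and C3, and the signs held in each batch. Over all genes tested neither pair overlapped in 33.0% and both signs held in each batch in 53.4%. The 27 were chosen by the tests of both effects, so nothing is read from this. The 9 genes with a fall in segment 1 changed modestly: their segment 1 effects were -1.22 to -0.23, their segment 3 effects 0.41 to 0.89, and none reached 2-fold in both segments. The 18 genes with a rise in segment 1 had segment 1 effects of 0.35 to 2.06 and segment 3 effects of -3.35 to -0.40. Of these, 10 reached 2-fold in both segments, and 9 stayed under 5 CPM in their highest group.

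Cirbp, a cold-inducible RNA-binding protein, fell in segment 1 and rose in segment 3. It measured 153 and 133 CPM in L1 against 228 and 185 CPM in C1, and 171 and 155 CPM in L3 against 110 and 108 CPM in C3, and the L3 libraries stood above both C3 libraries while the L1 libraries stood below both C1 libraries. Its difference was -1.10 ± 0.13 (adjusted p = 0.00053). Crebzf, a bZIP transcription factor, measured 53.3 and 49.7 CPM in L1 against 74.1 and 62.9 CPM in C1, and 66.7 and 56.9 CPM in L3 against 44.3 and 45.4 CPM in C3, with a difference of -0.86 ± 0.12 (adjusted p = 0.00089). Hnrnpul2, an hnRNP U-like protein, had a difference of -0.79 ± 0.12 (adjusted p = 0.0016), and Sart1, a spliceosome component, had -0.76 ± 0.12 (adjusted p = 0.002). Hdgfl2, a chromatin-binding protein of the HDGF family, measured 80.2 and 71 CPM in L1 against 102 and 80.5 CPM in C1, and 88.3 and 69 CPM in L3 against 53.9 and 52.4 CPM in C3, and in each batch L1 was below C1 and L3 above C3. Trim41, a ubiquitin ligase, had a difference of -0.66 ± 0.10 (adjusted p = 0.0017), and CAAA01118383.1, a gene on the unplaced scaffold GL456216.1, had -1.17 ± 0.17 (adjusted p = 0.0012).

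Sord, which encodes sorbitol dehydrogenase, the enzyme that turns sorbitol into fructose, had the opposite pattern. It measured 39.2 and 37.9 CPM in L1 against 20 and 22.1 CPM in C1, and 28.7 and 30.4 CPM in L3 against 67.1 and 48.6 CPM in C3. Both L1 libraries were above both C1 libraries, and both L3 libraries were below both C3 libraries. The segment 1 effect was 0.87 ± 0.13 (adjusted p = 0.00058), the segment 3 effect -0.96 ± 0.13 (adjusted p = 0.0068) and the difference 1.84 ± 0.19 (adjusted p = 0.0003). The levels in the 2 ligated groups lay between those of the 2 control groups. This held for the group means of 20 of the 27 opposite genes (74.1%, against 23.2% of all genes tested), and the gap between segments was smaller among ligated than among control libraries for 23 of 27 (85.2%, against 72.6% of all genes tested). Both shares use the same means as the effects that chose these genes and are given as a description.

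Ppp1r36, a regulatory subunit of protein phosphatase 1, measured 55.3 and 51.8 CPM in L1 against 21.5 and 24.1 CPM in C1, and 37.4 and 42.2 CPM in L3 against 61.3 and 56.5 CPM in C3, with a difference of 1.81 ± 0.16 (adjusted p = 0.0002). Bcl2l14, a member of the BCL2 family, measured 11.3 and 10.8 CPM in L1 against 7.51 and 8.49 CPM in C1, and 7.96 and 8.77 CPM in L3 against 20.8 and 16.3 CPM in C3, with a difference of 1.62 ± 0.20 (adjusted p = 0.00058). Fmod, the collagen-binding proteoglycan fibromodulin, measured 21.8 and 31.9 CPM in L1 against 14.1 and 15.2 CPM in C1, and 14.3 and 20 CPM in L3 against 25 and 27.3 CPM in C3, with a difference of 1.48 ± 0.17 (adjusted p = 0.00049). In each of these genes the ligated libraries were the higher pair in segment 1 and the lower pair in segment 3. Eml6, of a family of microtubule-associated proteins, had a difference of 1.05 ± 0.11 (adjusted p = 0.00037), Ndrg1, an androgen- and hypoxia-responsive gene, 1.05 ± 0.16 (adjusted p = 0.0016), Armcx2, of the X-linked armadillo-repeat family, 1.07 ± 0.17 (adjusted p = 0.0019), and Hk1, hexokinase 1, 1.03 ± 0.15 (adjusted p = 0.0011). Hk1 was named after its values were seen. Wbscr25 measured 6.42 and 4.23 CPM in L1 against 2.33 and 2.8 CPM in C1, and 6.78 and 4.6 CPM in L3 against 35.4 and 15.6 CPM in C3, with a difference of 3.14 ± 0.49 (adjusted p = 0.0027); its C3 libraries were higher than those of every other group and also far apart.

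The 9 opposite genes under 5 CPM in their highest group were all named after their values were seen, except that Deup1 is in the list of multiciliated cells. Deup1, a protein of the deuterosome that multiplies centrioles in multiciliated cells, measured 1.21 and 2.44 CPM in L1 against 0.325 and 0.536 CPM in C1, and 1.28 and 1.16 CPM in L3 against 4.4 and 3.66 CPM in C3. Dnah7b, an axonemal dynein heavy chain, measured 1.4 and 1.82 CPM in L1 against 0.576 and 0.685 CPM in C1, and 0.864 and 1.04 CPM in L3 against 3.21 and 2.4 CPM in C3. In both genes L1 was above C1 and C3 was the highest group. Cfap206 and Cfap69, cilia- and flagella-associated proteins, had differences of 4.68 ± 0.77 (adjusted p = 0.0021) and 3.02 ± 0.48 (adjusted p = 0.0018). Rgs22 had 3.20 ± 0.55 (adjusted p = 0.0025), Fank1 3.15 ± 0.36 (adjusted p = 0.00043), Ppp2r2b, a regulatory subunit of protein phosphatase 2A, 3.11 ± 0.47 (adjusted p = 0.0013), 1700003E16Rik 3.30 ± 0.42 (adjusted p = 0.00067) and Cdiptos 3.50 ± 0.48 (adjusted p = 0.00093). Cdiptos lies opposite Cdipt, and since the strand setting of the counting is not given, its reads and those of Cdipt may not be separate.

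The signs and the class of the opposite genes were also looked at under other settings. As neither pair of libraries overlapped in any of the 27, leaving out 1 library could hardly turn a sign. Nothing is therefore read from the kept signs. All 27 kept both signs and a called difference under library totals, under DESeq2 and when any 1 of the 8 libraries was left out. The segment 3 call was lost for all 27 without the L3 library of batch 3017, 2 of 27 kept it without the C3 library of batch 3017, and 5 of 27 without the L3 library of batch 3097. With the other 5 libraries left out in turn, 18 to 22 of 27 kept it, and the segment 1 call was kept by 13 of 27 without the C1 library of batch 3017, 16 without the L1 library of batch 3097 and 18 without the L1 library of batch 3017.

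**Figure D2:**
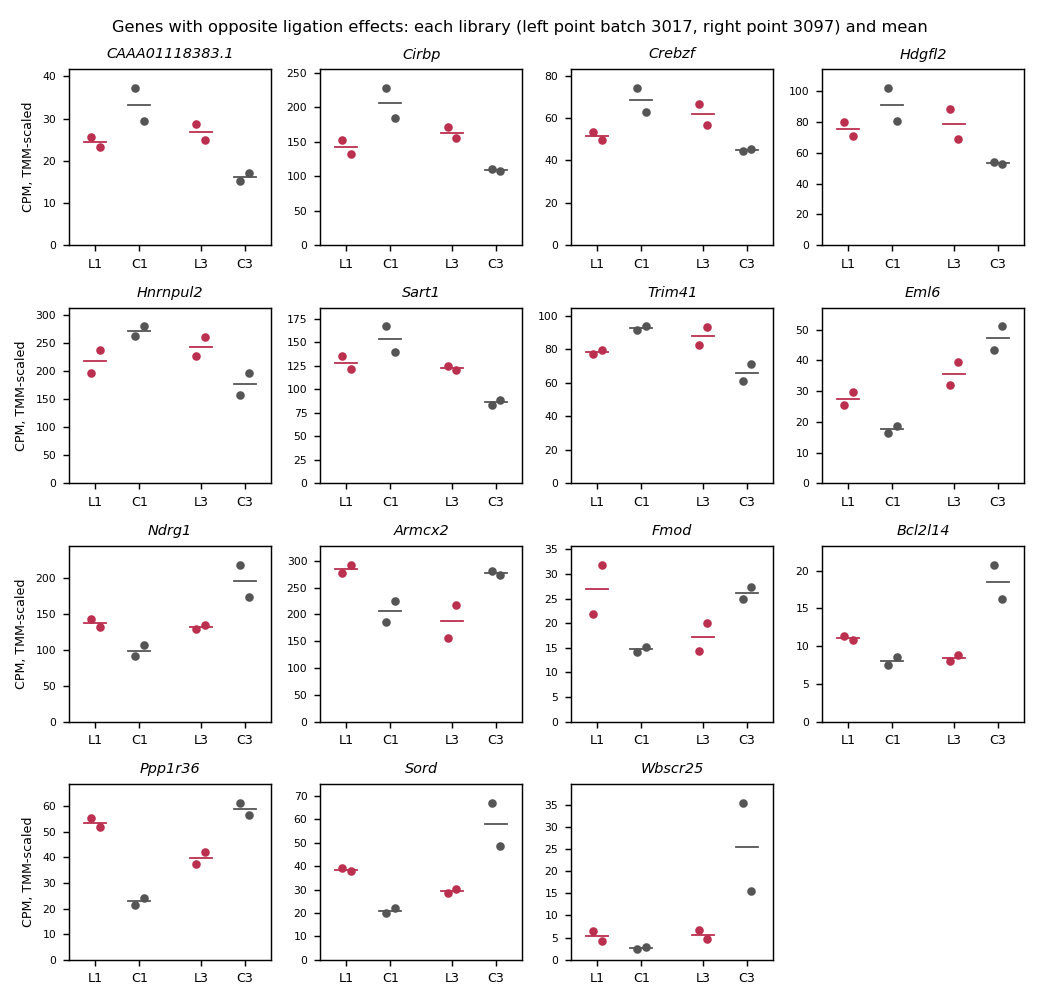
Each panel shows 1 opposite gene with its level in CPM (TMM-scaled, linear axis from 0) in the 2 libraries of L1, C1, L3 and C3, batch 3017 at left and 3097 at right, and the group mean as a line. In Cirbp the L1 pair (153 and 133) lies below the C1 pair (228 and 185) and the L3 pair above the C3 pair, while Sord shows the reverse.

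Genes changed in segment 1 only were the most numerous class, with 2831 genes higher and 2633 lower in L1. A segment 3 effect that misses the threshold is not shown to be 0, so the 95% interval of that effect was examined: it lay within -1 to 1, that is within 2-fold, for 4286 of the 5464 genes (2087 higher and 2199 lower in L1). The interval uses the spread shared by all groups, although the pairs of L3 and C3 differed more than those of L1 and C1. In 178 of the 5464 the fitted segment 3 effect was 2-fold or more without being called. In another 3719 genes segment 1 changed, but neither the segment 3 effect nor the difference was called, so these are not counted as changed in segment 1 only.

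The largest falls in segment 1 with a bounded segment 3 effect left L1 at about the level of both segment 3 groups. Jaml, a junctional adhesion molecule, measured 4.9 and 4.2 CPM in L1 against 132 and 121 CPM in C1, and 5.06 and 4.6 CPM in L3 against 2.87 and 4.24 CPM in C3. The C1 libraries stood far above the other 6, which lay close together. Its segment 1 effect was -4.80 ± 0.18 (adjusted p = 2.3e-06), its segment 3 effect 0.44 ± 0.17 (adjusted p = 0.26), and the difference -5.24 ± 0.24 (adjusted p = 3.7e-05). Abcb9, a lysosomal peptide transporter, measured 6.6 and 5.37 CPM in L1 against 249 and 180 CPM in C1, and 7.52 and 8.04 CPM in L3 against 7.64 and 9.37 CPM in C3. Its difference was -5.02 ± 0.35 (adjusted p = 0.0002). Vldlr, the very low density lipoprotein receptor, measured 4.95 and 5.96 CPM in L1 against 178 and 139 CPM in C1, and 5.11 and 3.41 CPM in L3 against 4.09 and 4.79 CPM in C3. Its difference was -4.75 ± 0.36 (adjusted p = 0.00023). Bmp7, a bone morphogenetic protein, measured 7.23 and 7.89 CPM in L1 against 242 and 160 CPM in C1, and 8.36 and 5.66 CPM in L3 against 4.94 and 6.56 CPM in C3. Its difference was -4.97 ± 0.35 (adjusted p = 0.0002). In all these genes C1 alone was high.

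The 4 other named falls had the same pattern. Mfsd2a, which carries lysophosphatidylcholine into cells, measured 11.4 and 11 CPM in L1 against 387 and 262 CPM in C1, and 15.7 and 9.28 CPM in L3 against 10.5 and 9.53 CPM in C3. Its difference was -5.09 ± 0.41 (adjusted p = 0.00042). Slc29a4, a monoamine and nucleoside transporter, measured 0.863 and 1.2 CPM in L1 against 38.4 and 24.4 CPM in C1, and 1.15 and 1.19 CPM in L3 against 1.25 and 1.16 CPM in C3. Its difference was -4.87 ± 0.41 (adjusted p = 0.00018). Kctd17, an adaptor of cullin-3 ubiquitin ligases, had a difference of -4.75 ± 0.36 (adjusted p = 0.00025), and Tas1r1, a subunit of the umami taste receptor, had -4.80 ± 0.41 (adjusted p = 0.00019). The C1 libraries were the highest 2 of the 8 in each of these 4 genes.

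The largest rises put L1 at about the level of segment 3 or above it. Ptgds, the lipocalin-type prostaglandin D synthase, measured 1810 and 1240 CPM in L1 against 51.9 and 89.5 CPM in C1, and 1910 and 2000 CPM in L3 against 1680 and 1830 CPM in C3. The C1 libraries were far below the other 6. Its segment 1 effect was 4.48 ± 0.35 (adjusted p = 5.7e-05), its segment 3 effect 0.16 ± 0.30 (adjusted p = 0.84) and the difference 4.32 ± 0.44 (adjusted p = 0.00059).

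P2rx2, an ATP-gated cation channel, measured 103 and 87.9 CPM in L1 against 2.75 and 7.18 CPM in C1, and 77.5 and 72.6 CPM in L3 against 71.3 and 70 CPM in C3. Kcnmb4, an accessory subunit of the large-conductance calcium-activated potassium channel, measured 33.2 and 28.7 CPM in L1 against 0.751 and 2.35 CPM in C1, and 30.5 and 33.5 CPM in L3 against 31.4 and 30.9 CPM in C3. In both channel genes the C1 library of batch 3017 was lowest of all 8 and every other group was several times higher than C1. Their differences were 4.22 ± 0.54 (adjusted p = 0.0024) and 4.36 ± 0.51 (adjusted p = 0.0013). Nme4, a mitochondrial nucleoside diphosphate kinase, had a difference of 4.59 ± 0.56 (adjusted p = 0.00059), Cfap161, a cilia- and flagella-associated protein, 5.15 ± 0.50 (adjusted p = 0.00033), BC016579 4.74 ± 0.52 (adjusted p = 0.0004) and Fam196b 6.18 ± 0.67 (adjusted p = 0.00066); the last had only 12 counts over the 2 C1 libraries. All 15 genes named for a change in segment 1 only kept that class in each of the 14 alternative settings run. They were chosen for the largest segment 1 effects with a bounded segment 3 effect, so nothing is read from this. The class itself held 3491 genes without the L1 library of batch 3017.

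**Figure D3:**
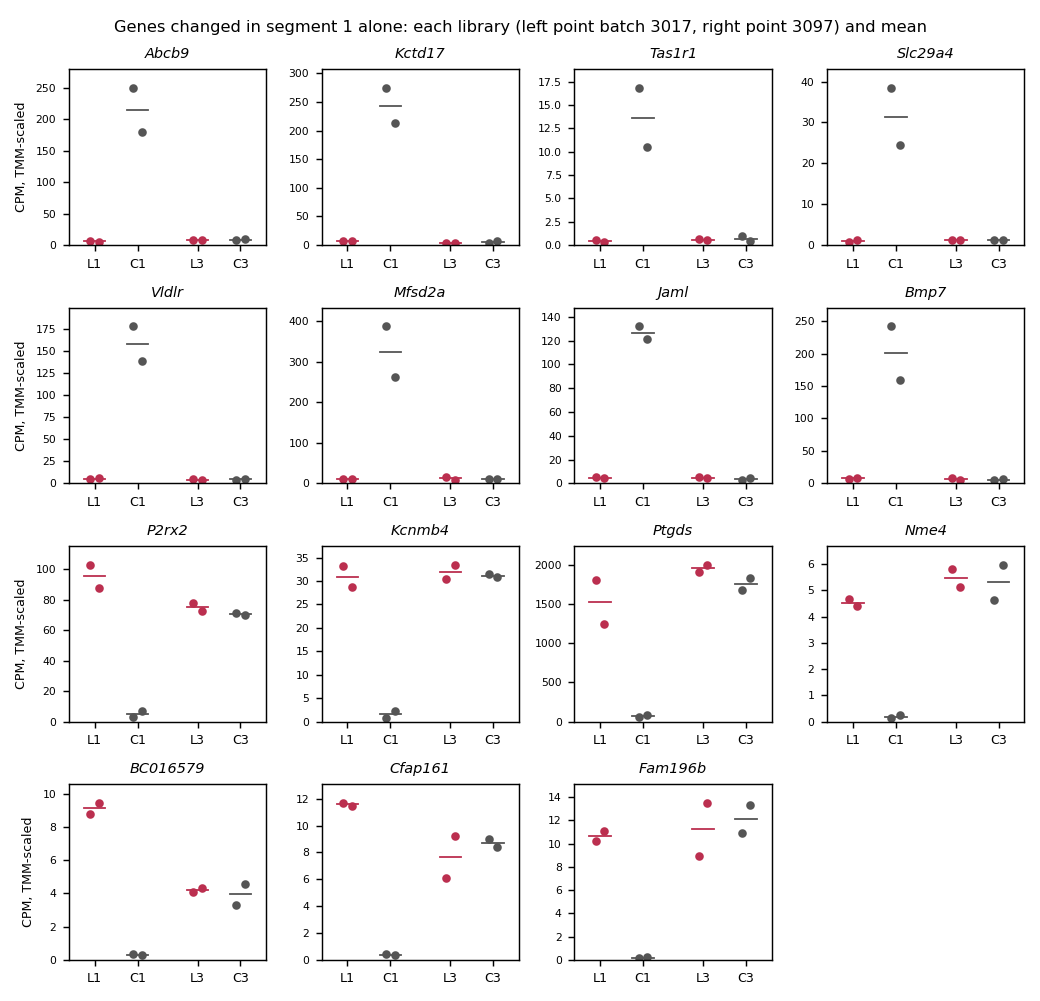
Each panel shows 1 gene changed in segment 1 only, with its level in CPM (TMM-scaled, linear axis from 0) in the 2 libraries of L1, C1, L3 and C3 and the group mean as a line. In the falls, such as Jaml (132 and 121 CPM in C1), C1 is the only high group, and in the rises, such as Ptgds (51.9 and 89.5 CPM in C1), it is the only low one.

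Across this class the ligated segments lay closer together than the control segments. Among the falls the gap between L1 and L3 was smaller than that between C1 and C3 in 94.9% of genes, with median absolute log2 gaps of 0.14 in ligated and 0.75 in control libraries. Among the rises it was smaller in 89.2%, with medians of 0.23 and 1.05. Over all genes tested the share was 72.6% and the medians were 0.17 and 0.42. These gaps use the same 4 group means as the difference of effects, so they restate it and do not test it.

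The 250 bases upstream of the RefSeq start were read for the genes named by rule, of which 41 of 52 matched (build GRCm38.p6). Each was searched on both strands for 3 motifs: CCGGAAG, which ETS factors can bind, TGANTCA, the AP-1 site, and AGAACA, a half-site of steroid receptors such as the androgen receptor. The ones printed are genes that fell in segment 1 only (Abcb9, Tas1r1, Vldlr), a rise (Ptgds), an opposite gene (Hdgfl2) and a gene changed in segment 3 only (Gar1), each chosen because it holds a motif. They are written 5′ to 3′ on the strand of the gene with motif letters in capitals, CTTCCGG and TGTTCT being CCGGAAG and AGAACA on the other strand. Abcb9 was read from chr5:124095799-124096048 (minus strand), Tas1r1 from chr4:152038491-152038740 (minus strand), Vldlr from chr19:27216234-27216483 (plus strand), Ptgds from chr2:25469750-25469999 (minus strand), Hdgfl2 from chr17:56079381-56079630 (plus strand) and Gar1 from chr3:129831397-129831646 (minus strand).
Abcb9: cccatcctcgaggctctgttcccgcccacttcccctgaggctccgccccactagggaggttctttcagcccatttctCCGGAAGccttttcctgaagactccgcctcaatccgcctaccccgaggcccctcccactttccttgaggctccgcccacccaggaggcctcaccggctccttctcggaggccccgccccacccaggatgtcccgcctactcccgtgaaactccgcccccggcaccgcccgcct
Tas1r1: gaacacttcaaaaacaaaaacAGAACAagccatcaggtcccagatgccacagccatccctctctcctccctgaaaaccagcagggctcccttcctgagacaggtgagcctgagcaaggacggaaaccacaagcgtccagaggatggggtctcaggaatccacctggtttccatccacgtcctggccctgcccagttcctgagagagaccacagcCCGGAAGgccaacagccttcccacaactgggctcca
Vldlr: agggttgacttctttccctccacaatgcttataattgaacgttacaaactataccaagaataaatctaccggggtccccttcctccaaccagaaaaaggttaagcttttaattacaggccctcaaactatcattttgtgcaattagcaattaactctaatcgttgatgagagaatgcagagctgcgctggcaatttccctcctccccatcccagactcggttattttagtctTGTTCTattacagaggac
Ptgds: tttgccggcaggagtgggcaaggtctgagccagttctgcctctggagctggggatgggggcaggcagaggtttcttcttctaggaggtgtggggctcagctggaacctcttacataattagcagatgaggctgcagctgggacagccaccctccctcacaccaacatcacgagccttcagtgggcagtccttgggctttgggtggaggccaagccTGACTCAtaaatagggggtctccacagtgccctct
Hdgfl2: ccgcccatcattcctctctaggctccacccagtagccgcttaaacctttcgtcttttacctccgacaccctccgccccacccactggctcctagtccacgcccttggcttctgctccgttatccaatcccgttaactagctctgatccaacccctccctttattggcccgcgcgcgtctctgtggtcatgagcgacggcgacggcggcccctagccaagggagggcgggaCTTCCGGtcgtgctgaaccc
Gar1: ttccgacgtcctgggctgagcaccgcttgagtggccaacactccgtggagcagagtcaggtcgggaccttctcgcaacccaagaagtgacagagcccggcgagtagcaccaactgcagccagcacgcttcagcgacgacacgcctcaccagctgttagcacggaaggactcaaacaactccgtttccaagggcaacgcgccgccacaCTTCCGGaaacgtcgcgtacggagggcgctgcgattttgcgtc

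CCGGAAG was found upstream of 15% of the 2003 matched genes that fell in segment 1 only, 6.63% of the 2051 matched genes that rose in segment 1 only, and 12.1% of the 12925 matched genes tested. Among genes of segment 1 only with an effect of at least 2-fold it was found for 9.39% of 735 falls and 4.55% of 1275 rises. The share of the larger falls lay below that of all genes tested and the share of all falls above it. TGANTCA was in 4.99% of the falls, 4.97% of the rises and 4.72% of the matched genes tested. AGAACA was in 9.49% of the falls, 11.9% of the rises and 11.4% of the matched genes tested. Of the 19 opposite genes that matched, 2 held CCGGAAG, none held TGANTCA and 2 held AGAACA. Over 27025 RefSeq genes outside chromosome 18, each read at its first listed start, the shares were 7.05%, 6.87% and 16.2%. A match is a stretch of letters and says nothing about binding.

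Genes of the lumicrine pathway were lower in the difference. In a list of ERK targets and feedback regulators, 14 of 21 tested genes had a lower and 1 a higher difference, with a median of -2.07 against 0.04 over all genes. The counts of differences in this and the following lists stand against 14.7% lower and 16.1% higher over all genes tested. A share near these, as for macrophage markers, is no result about the list. Counts of segment 1 effects stand against 24.4% in each direction. Counts of segment 3 effects stand against 1.41% lower and 0.312% higher. In segment 1, 18 fell and 2 rose; in segment 3 none was called, and the list's median effects were -2.99 and -0.72. Without the L1 library of batch 3017, 9 were lower. Dusp6, the phosphatase that switches ERK off, measured 5.06 and 5.77 CPM in L1 against 349 and 251 CPM in C1, and 5 and 4.32 CPM in L3 against 14.1 and 6.87 CPM in C3. Its difference was -4.65 ± 0.64 (adjusted p = 0.0034). Spry1, a feedback inhibitor of receptor tyrosine kinases, measured 14.1 and 12.3 CPM in L1 against 105 and 89.5 CPM in C1, and 15.9 and 9.48 CPM in L3 against 15.1 and 10.5 CPM in C3. Its difference was -2.85 ± 0.27 (adjusted p = 0.00036). Phlda1, induced by ERK signalling, measured 31 and 30.2 CPM in L1 against 390 and 228 CPM in C1, and 53.5 and 33.7 CPM in L3 against 37.9 and 39.1 CPM in C3. Its difference was -3.39 ± 0.43 (adjusted p = 0.0019). Dusp6 in segment 3 was lower in L3 than C3 in both batches without being called, while Spry1 and Phlda1 overlapped there.

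Among genes of the initial segment the difference was lower for 11 and higher for 2 of 21 tested, with a median of -3.86; only 3 to 7 were lower when each of the 8 libraries was left out in turn, and 6 with no low-count filter. Ros1, the receptor of the pathway, measured 149 and 180 CPM in L1 against 698 and 722 CPM in C1, and 264 and 234 CPM in L3 against 228 and 252 CPM in C3. Both L1 libraries were below both C1 libraries, while L3 and C3 overlapped. Its difference was -2.15 ± 0.34 (adjusted p = 0.003). Etv4, an ETS factor, measured 0.303 and 0.112 CPM in L1 against 234 and 165 CPM in C1, and 0.393 and 0.278 CPM in L3 against 1.25 and 1.61 CPM in C3, and Etv5 measured 1.66 and 1.96 CPM in L1 against 966 and 810 CPM in C1, and 1.47 and 1.85 CPM in L3 against 31.9 and 7.53 CPM in C3. Both fell in segment 1, and both were lower in L3 than C3 without a call there; their differences were -7.74 ± 1.59 (adjusted p = 0.015) and -5.64 ± 1.35 (adjusted p = 0.027). The C3 libraries of Etv5 differed severalfold between the batches. The lipocalin genes Lcn8 and Lcn9 and the cystatin gene Cst8 likewise had a much larger fall in segment 1, with differences of -5.84 ± 1.53 (adjusted p = 0.036), -7.18 ± 1.53 (adjusted p = 0.018) and -5.45 ± 1.58 (adjusted p = 0.048). The 2 genes with a higher difference were Ggt1, gamma-glutamyltransferase 1, at 3.20 ± 0.58 (adjusted p = 0.0086), and Penk, proenkephalin, at 1.58 ± 0.26 (adjusted p = 0.0028).

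Growth factor ligands and receptors divided, with 10 higher and 7 lower of 30 tested (6 and 6 without the L3 library of batch 3097). Among ligands, Tgfa measured 36.1 and 37.3 CPM in L1 against 5.81 and 5.81 CPM in C1, and 25.4 and 25.1 CPM in L3 against 17.9 and 21.2 CPM in C3, a difference of 2.28 ± 0.18 (adjusted p = 0.00014). Hbegf measured 2.17 and 2.21 CPM in L1 against 32.6 and 23.1 CPM in C1, and 2.23 and 2.07 CPM in L3 against 2.24 and 2.08 CPM in C3, a difference of -3.64 ± 0.34 (adjusted p = 0.00023). Both bind the EGF receptor; L1 was the high group for Tgfa and C1 for Hbegf, and L3 and C3 overlapped in Hbegf. Vegfa had a difference of -3.17 ± 0.28 (adjusted p = 0.00037). Among receptors, Igf1r had -2.97 ± 0.33 (adjusted p = 0.00088), Met -2.42 ± 0.41 (adjusted p = 0.0046), Pdgfra -3.33 ± 0.87 (adjusted p = 0.035) and Egfr 1.47 ± 0.26 (adjusted p = 0.003).

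Cholesterol synthesis genes were lower in 13 and higher in 2 of 25, with a median difference of -0.42 and median effects of -0.55 in segment 1 and -0.10 in segment 3. The count lower was 8 without the block for batch, 8 without C1 of batch 3097, 8 without C3 of batch 3017, 7 without L1 of batch 3017 and 6 without L3 of batch 3097. Lss, lanosterol synthase, measured 49.9 and 61.9 CPM in L1 against 177 and 206 CPM in C1, and 37 and 44.8 CPM in L3 against 49.7 and 49.9 CPM in C3, a difference of -1.49 ± 0.33 (adjusted p = 0.013). Its L1 libraries were far below both C1 libraries, and its L3 libraries were below both C3 libraries by much less. Fdps, farnesyl diphosphate synthase, was 1 of the 2 with a higher difference, at 1.62 ± 0.27 (adjusted p = 0.0023).

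Called differences of secretory and redox genes of the caput went both ways. In the lists of redox enzymes and of caput secretory genes the lower counts were near the 14.7% of all genes tested. These lower counts are no result about the lists. In the list of glutathione and redox enzymes 12 were higher and 6 lower of 34 tested; library totals gave 19 and 5, and leaving out L1 of batch 3017 gave 12 and 3. Gstm1, a glutathione transferase, measured 631 and 644 CPM in L1 against 69 and 89.5 CPM in C1, and 519 and 482 CPM in L3 against 343 and 421 CPM in C3, a difference of 2.62 ± 0.25 (adjusted p = 0.00025). Gpx3, a secreted glutathione peroxidase, measured 661 and 465 CPM in L1 against 38.5 and 38.4 CPM in C1, and 652 and 655 CPM in L3 against 501 and 563 CPM in C3, a difference of 3.59 ± 0.73 (adjusted p = 0.014). Gpx4, which reduces lipid peroxides, measured 149 and 139 CPM in L1 against 238 and 223 CPM in C1, and 160 and 150 CPM in L3 against 150 and 148 CPM in C3, a difference of -0.73 ± 0.11 (adjusted p = 0.0015). In Gstm1 and Gpx3, C1 was the low group, and in Gpx4 it was the high one.

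Caput secretory genes were higher in 10 and lower in 6 of 32. The count lower was 3 with library totals, 2 with no low-count filter, 3 without C1 of batch 3017, 2 without C1 of batch 3097, 1 without L1 of batch 3017, 2 without L1 of batch 3097 and 2 without L3 of batch 3017. Clu, the secreted chaperone clusterin, measured 18700 and 16300 CPM in L1 against 453 and 564 CPM in C1, and 28300 and 24000 CPM in L3 against 16800 and 22600 CPM in C3, a difference of 4.69 ± 0.81 (adjusted p = 0.0063). Spink12, a protease inhibitor, measured 871 and 926 CPM in L1 against 13.9 and 24 CPM in C1, and 681 and 862 CPM in L3 against 455 and 692 CPM in C3, a difference of 5.20 ± 0.79 (adjusted p = 0.005). Crisp1, a sperm-coating secretory protein, measured 12.7 and 10 CPM in L1 against 910 and 845 CPM in C1, and 31 and 10.8 CPM in L3 against 5.85 and 23.5 CPM in C3, a difference of -6.76 ± 1.13 (adjusted p = 0.0079). C1 was the low group in Clu and Spink12 and the high group in Crisp1, and L3 and C3 overlapped in Spink12 and Crisp1. Lcn12, a lipocalin gene, had a difference of 3.82 ± 0.40 (adjusted p = 0.00064).

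Markers of other cell types also moved, and fewer cells of a type and less RNA per cell cannot be told apart in bulk tissue. Clear and narrow cells acidify the lumen, and 6 of their 13 tested markers had a higher difference and none a lower one; without L1 of batch 3017 it was 3, and without C3 of batch 3017 it was 3 higher and 1 lower. Their summed level was 1170 to 1280 CPM in L1, 339 to 442 in C1, 1250 to 1320 in L3 and 1210 to 1290 in C3. Foxi1, the transcription factor of these cells, measured 123 and 107 CPM in L1 against 14.1 and 25.6 CPM in C1, and 133 and 138 CPM in L3 against 131 and 154 CPM in C3, a difference of 2.63 ± 0.31 (adjusted p = 0.00095). Car12, a carbonic anhydrase, measured 99 and 86.7 CPM in L1 against 6.58 and 10.2 CPM in C1, and 116 and 106 CPM in L3 against 119 and 112 CPM in C3, a difference of 3.55 ± 0.32 (adjusted p = 0.00042). Rhcg, an ammonia channel, had a difference of 2.98 ± 0.36 (adjusted p = 0.00092), and C1 was the only low group in all of these.

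Multiciliated-cell markers had a higher difference in 11 of 18 and a lower one in none, 7 without C1 of batch 3097 and 7 without C3 of batch 3017. The median effect was 1.29 in segment 1 and -0.66 in segment 3. Their summed level was 216 to 232 CPM in L1, 113 to 120 in C1, 132 to 142 in L3 and 152 to 179 in C3. Without Ccno, the most abundant member, it was 76.8 to 98.0 in L1, 42.8 to 47.5 in C1, 26.4 to 33.9 in L3 and 38.7 to 38.9 in C3. The sum of C3 lay above that of C1 with Ccno and below it without. Foxj1, the master factor of motile cilia, measured 12.9 and 16.5 CPM in L1 against 7.66 and 5.07 CPM in C1, and 0.812 and 1.37 CPM in L3 against 1.96 and 1.61 CPM in C3, a difference of 1.91 ± 0.41 (adjusted p = 0.0074). Mcidas, an upstream regulator of these cells, measured 5.13 and 4.06 CPM in L1 against 0.726 and 1.19 CPM in C1, and 3.93 and 4.48 CPM in L3 against 3.92 and 4.27 CPM in C3, a difference of 2.25 ± 0.38 (adjusted p = 0.0024). L1 was above C1 in both. The part of a changed cell mix in these differences was not tested.

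Fibroblast and matrix markers were higher in 11 and lower in 2 of 19 (7 and 0 without C1 of batch 3017 or without L1 of batch 3097), smooth muscle markers in 7 and 2 of 13, and complement genes in 5 and 0 of 16. The summed fibroblast and matrix level was 688 to 894 CPM in L1, 853 to 895 in C1, 544 to 575 in L3 and 663 to 764 in C3. Without Gsn, the most abundant member, it was 364 to 523 in L1, 754 to 778 in C1, 255 to 263 in L3 and 285 to 294 in C3. The summed smooth muscle level was 694 to 830 CPM in L1, 3570 in both C1 libraries, 610 to 626 in L3 and 636 to 726 in C3. Without Actg2 it was 682 to 819 in L1, 697 to 712 in C1, 600 to 616 in L3 and 609 to 696 in C3. The sums did not follow the counts of higher markers. Without Gsn the fibroblast sum was lower in L1 than in C1. The smooth muscle sum was lower in L1 with Actg2 and overlapped without it. Dcn, the matrix proteoglycan decorin, measured 103 and 161 CPM in L1 against 34.8 and 46.5 CPM in C1, and 51.7 and 62.7 CPM in L3 against 55.6 and 61.9 CPM in C3, a difference of 1.73 ± 0.17 (adjusted p = 0.00028). L1 of batch 3097 was its highest library. Endothelial markers were lower in 4 of 15 and higher in none, with a count of 2 of 15 without C1 of batch 3017, C1 of batch 3097 or L1 of batch 3017. Kdr, a receptor of VEGF, measured 2.78 and 5.26 CPM in L1 against 23.8 and 25.7 CPM in C1, and 3.93 and 1.42 CPM in L3 against 1.53 and 1.4 CPM in C3, a difference of -3.44 ± 0.68 (adjusted p = 0.0075). The summed endothelial level was 78.4 to 92.0 CPM in L1, 171 to 180 in C1, 41.4 to 50.3 in L3 and 48.8 to 55.9 in C3.

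Immune markers gave few called differences. Macrophage and dendritic cell markers were higher in 3 and lower in 1 of 25, and the count higher was 1 without C1 of batch 3017, C1 of batch 3097, C3 of batch 3017, L1 of batch 3017, L3 of batch 3017 or L3 of batch 3097. Cd68, a lysosomal protein of macrophages, measured 58.3 and 49.4 CPM in L1 against 4.86 and 7.45 CPM in C1, and 47.9 and 76.7 CPM in L3 against 52.6 and 56.7 CPM in C3, a difference of 3.09 ± 0.67 (adjusted p = 0.018). The list did not follow Cd68, as its median difference was 0.03, against 0.04 over all genes. Without Cd68, the most abundant member, the summed level was 363 to 430 CPM in L1 and 321 to 344 in C1. In segment 3 it was 245 to 275 CPM in L3 and 199 to 220 in C3. For T and NK cells 1 of 11 markers was lower. In segment 1, 3 of them rose and 1 fell, against 24.4% of all genes tested in each direction. Their summed level was 16.3 to 21.7 CPM in L1, 429 to 558 in C1, 7.36 to 9.20 in L3 and 11.8 to 15.8 in C3. Without Klrb1c, the most abundant member, it was 7.58 to 9.43 CPM in L1 and 4.73 to 4.74 in C1. In segment 3 it was then 5.19 to 5.87 CPM in L3 and 4.48 to 4.83 in C3. The T cell genes Cd3d, Cd8b1 and Trac and the NK cell gene Ncr1 did not pass the low-count filter. The other 11 of the 15 listed genes, Cd3e, Cd3g and Cd4 among them, passed it. The neutrophil genes Mpo, Retnlg and Cxcr2 had no count. Cytosolic ribosomal protein genes rose in segment 1 in 24 of 26, against 24.4% of all genes tested, with a median effect of 0.58. In segment 3 none was called, and the median effect was 0.29. The difference was called higher for 1 of them, Rpl10a, and lower for none (7 higher with library totals). Of 27 proliferation genes, 13 fell and 1 rose in segment 1, with a median effect of -0.84. In segment 3, 5 fell and none rose, with a median effect of -1.13. Over all genes tested 24.4% fell in segment 1 and 1.41% in segment 3. The difference was called for 1 of the 27, Mcm2, at 0.68 ± 0.12 (adjusted p = 0.0028). The count was 7 higher without L1 of batch 3017, 1 higher and 2 lower without L1 of batch 3097, and 3 higher and 1 lower with DESeq2. The median difference of the list was 0.38, against 0.77 and -0.16 without these L1 libraries.

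**Figure D4:**
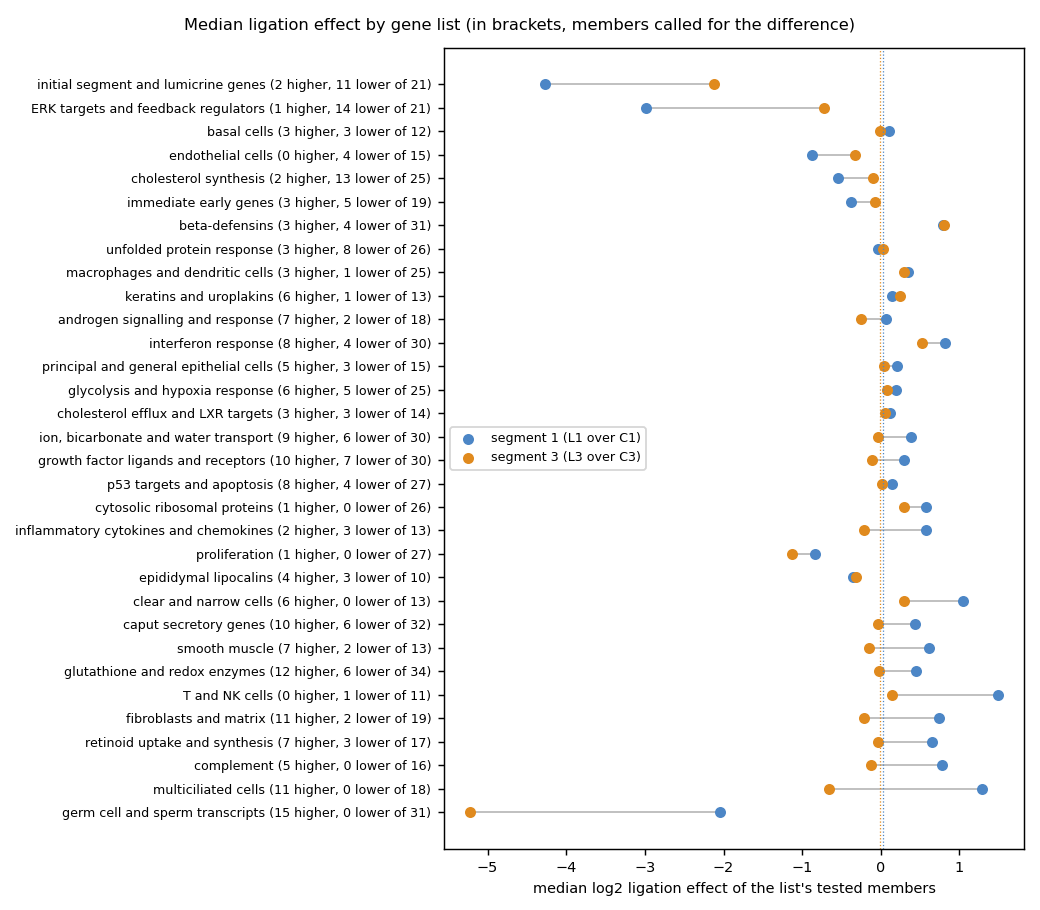
Each row is a gene list with at least 10 tested members, ordered by its median difference, with the median log2 effect in segment 1 (blue) and segment 3 (orange) on the x axis and the number of members called for the difference in brackets; dotted lines mark the medians over all genes. The ERK and initial segment lists lie farthest to the left in segment 1 (medians -2.99 and -4.27), and the germ cell list lies farthest to the left in segment 3 (median -5.22).

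Transcripts of germ cells and sperm had segment 3 effects below their segment 1 effects wherever the difference was called. Of 31 tested genes 15 had a higher difference and none a lower one, with a median of 2.7; the count higher was 5 without L1 of batch 3017, 9 without C1 of batch 3017, and 9 with 1 lower without L3 of batch 3097. In segment 3, 22 fell and none rose, with a median effect of -5.22, and in segment 1, 14 fell and 5 rose, with a median of -2.05. Over all genes tested 1.41% fell and 0.312% rose in segment 3, and 24.4% went each way in segment 1. Their summed level was 80.5 and 77.3 CPM in L1, 116 and 116 in C1, 102 and 74.0 in L3, and 463 and 277 in C3. This sum mixes genes that fell in segment 1 with genes that did not, so it does not measure the loss of sperm transcripts. Smcp, a list member, averaged 0.133 CPM in L1, 2.05 in C1, 0.065 in L3 and 38.1 in C3. Smcp, Odf1 and Prm1 made up little of the sum outside C3. Odf1, an outer dense fibre protein of the flagellum, measured 0.14 and 0.168 CPM in L1 against 1.98 and 2.56 CPM in C1, and 0.157 and 0.177 CPM in L3 against 54.8 and 27.2 CPM in C3. Prm1, protamine 1, measured 0.07 and 0.028 CPM in L1 against 1.28 and 1.46 CPM in C1, and 0.0524 and 0 CPM in L3 against 14.6 and 7.4 CPM in C3. Both were near 0 in both ligated groups and highest in C3, and the C3 library of batch 3017 was the higher of the pair. A fitted difference of such genes depends on a few counts in the ligated libraries and is no bound. Of the 15, Tekt1, Tekt5 and Tssk1 changed in segment 1 only, by a rise; Tekt1, a tektin of ciliary and flagellar microtubules, is also in the multiciliated list and measured 2.26 and 2.94 CPM in L1 against 0.876 and 0.715 CPM in C1, and 0.21 and 0.0759 CPM in L3 against 0.54 and 0.342 CPM in C3.

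Changes in segment 3 only numbered 79, with 26 higher and 53 lower in L3, and 34 of them had a segment 1 interval within -1 to 1 (25 higher and 9 lower in L3). The class held 13 genes without C3 or L3 of batch 3017 and 28 without L3 of batch 3097. Tcp11, a gene of testis and sperm, measured 1.05 and 0.896 CPM in L1 against 1.38 and 0.894 CPM in C1, and 0.707 and 0.809 CPM in L3 against 14.4 and 6.53 CPM in C3. The C3 libraries stood above the other 6. Its segment 3 effect was -3.69 ± 0.30 (adjusted p = 0.0004), its segment 1 effect -0.21 ± 0.31 (adjusted p = 0.61) and the difference 3.48 ± 0.43 (adjusted p = 0.00059). Ccdc136, known from the sperm acrosome, measured 2.1 and 1.93 CPM in L1 against 3.1 and 2.47 CPM in C1, and 1.6 and 2.12 CPM in L3 against 25.9 and 15.9 CPM in C3, a difference of 2.98 ± 0.33 (adjusted p = 0.0004). Spata18 had no count in L3, so it was at least 104-fold lower in L3 than in C3, against a floor of 3 counts per library; it measured 0.49 and 1.09 CPM in L1 against 1.1 and 0.626 CPM in C1, and 0 and 0 CPM in L3 against 11.2 and 4.79 CPM in C3. Tssk6, a kinase of spermatids, had a difference of 2.7 ± 0.44 (adjusted p = 0.002), Akap3, an anchoring protein of the sperm tail, 2.22 ± 0.56 (adjusted p = 0.016), and Hspa1l, a heat shock protein of spermatids, 2.55 ± 0.59 (adjusted p = 0.01).

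Other genes that fell in segment 3 only were expressed well above 0 in every group. Azin2, an antizyme inhibitor of polyamine metabolism, measured 10.5 and 11.6 CPM in L1 against 9.06 and 10.4 CPM in C1, and 8.3 and 11.1 CPM in L3 against 26.4 and 19.4 CPM in C3; its segment 3 effect was -1.25 ± 0.18 (adjusted p = 0.0081) and its difference 1.43 ± 0.25 (adjusted p = 0.0027). Akr1c19, an aldo-keto reductase, measured 22.1 and 29.6 CPM in L1 against 19.4 and 29.1 CPM in C1, and 19.8 and 24.9 CPM in L3 against 40.9 and 43 CPM in C3; its segment 3 effect was -0.92 ± 0.15 (adjusted p = 0.015) and its difference 1.02 ± 0.21 (adjusted p = 0.0056). Fam149a measured 18.8 and 18.8 CPM in L1 against 12.3 and 17.4 CPM in C1, and 17.5 and 21.7 CPM in L3 against 43.9 and 33.1 CPM in C3. Its difference was 1.34 ± 0.27 (adjusted p = 0.0059). In all these genes the C3 pair was the highest.

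Gar1, a core protein of H/ACA small nucleolar ribonucleoproteins, rose in segment 3 only. It measured 22.8 and 22.2 CPM in L1 against 25.7 and 23.9 CPM in C1, and 22.1 and 27.1 CPM in L3 against 10.3 and 13.3 CPM in C3; its segment 3 effect was 1.06 ± 0.14 (adjusted p = 0.0061) and its difference -1.20 ± 0.20 (adjusted p = 0.002). Ccdc9 measured 52.7 and 48.4 CPM in L1 against 59.2 and 52.9 CPM in C1, and 53.9 and 46 CPM in L3 against 29.9 and 32.1 CPM in C3; its segment 3 effect was 0.68 ± 0.09 (adjusted p = 0.0055) and its difference -0.83 ± 0.13 (adjusted p = 0.0014). C3 was the only low group in both genes. The other 3 named rises were Fbxw4, an F-box protein, with a difference of -0.59 ± 0.19 (adjusted p = 0.038), Prr15 with -0.69 ± 0.21 (adjusted p = 0.031) and Zfp622, a zinc finger protein, with -0.57 ± 0.15 (adjusted p = 0.018). The difference of Zfp622 lost its call without C1 or C3 of batch 3017 and without L1 or L3 of batch 3097, with an adjusted p of up to 0.12. That of Prr15 lost it without either C1 library, C3, L1 or L3 of batch 3017 (up to 0.12). That of Fbxw4 lost it without either C1 library, either L1 library, or C3 or L3 of batch 3017 (up to 0.14).

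**Figure D5:**
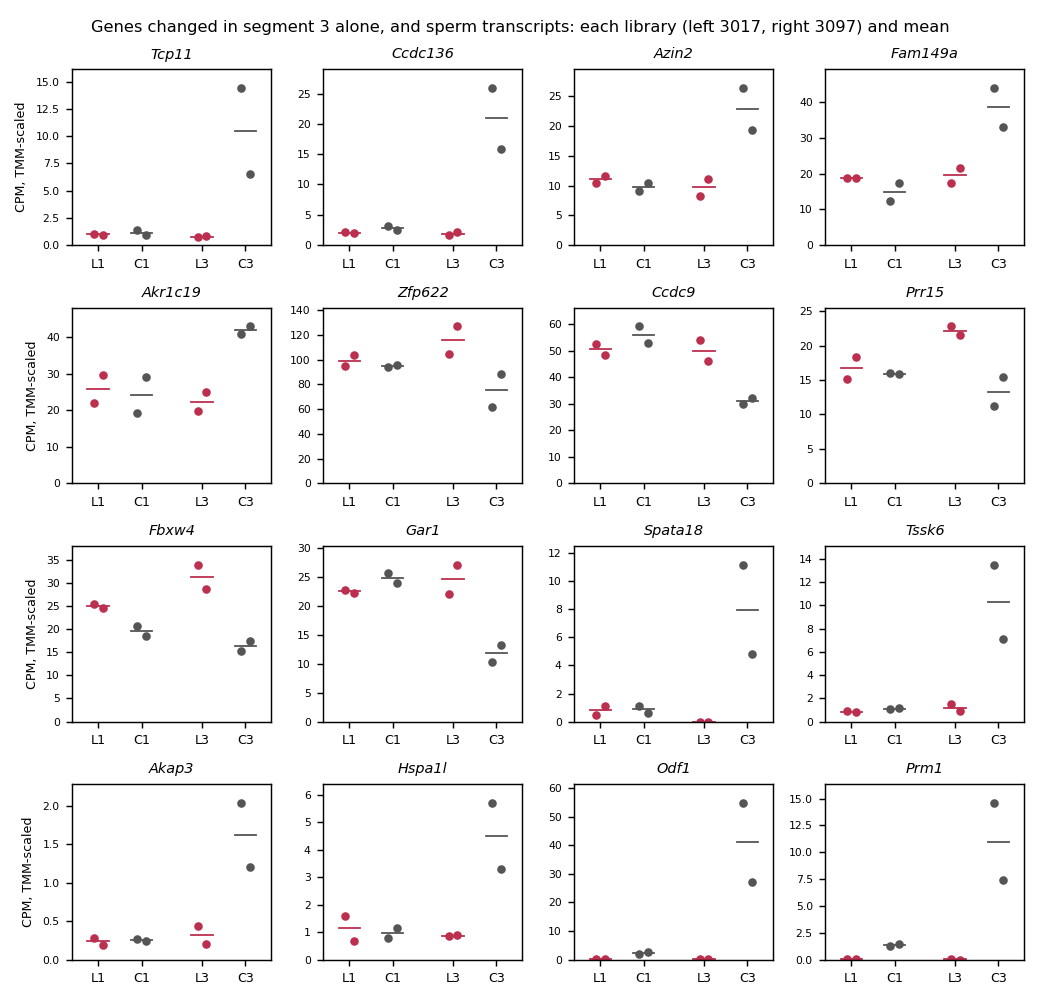
Each panel shows the level in CPM (TMM-scaled, linear axis from 0) of 1 gene changed in segment 3 only, or of a sperm transcript, in the 2 libraries of L1, C1, L3 and C3, with the group mean as a line. In Tcp11 and the sperm transcripts C3 is the highest group (Tcp11, 14.4 and 6.53 CPM), and in Gar1 and Ccdc9 C3 alone is low (Gar1, 10.3 and 13.3 CPM).

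Same-direction changes of different size numbered 32, of which 14 were larger in segment 1 and 18 larger in segment 3. The class held 15 genes without C1, 12 without C3, 13 without L1 and 13 without L3 of batch 3017, and 18 without C1, 20 without L1 and 11 without L3 of batch 3097. Rnase10, a secreted ribonuclease-like protein of the initial segment, measured 1.66 and 1.48 CPM in L1 against 8720 and 9640 CPM in C1, and 1.39 and 2.53 CPM in L3 against 259 and 66.5 CPM in C3; ligated libraries were near 0 in both segments. Its difference was -6.46 ± 1.20 (adjusted p = 0.011). Tecta, which encodes alpha-tectorin, had 2 counts over both L1 libraries against 14750 over both C1 libraries, and 3 counts in L3 against 73 in C3. The ratio of C1 to L1 was 7890 (95% counting interval 2180 to 65100) and that of C3 to L3 was 25.8 (8.50 to 128). Pnp2, a purine nucleoside phosphorylase, measured 0.0933 and 0.056 CPM in L1 against 14 and 11.9 CPM in C1, and 0.0524 and 0.0506 CPM in L3 against 0.71 and 0.316 CPM in C3, a difference of -4.19 ± 0.80 (adjusted p = 0.0042). All 3 fell more in segment 1. Leaving out L1 of batch 3017 gave Rnase10 an adjusted p of 0.059, and the difference of Tecta lost its call without either C1 library, either L1 library or L3 of batch 3097 (adjusted p up to 0.99).

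Rises that were larger in segment 1 included Hspa1a, a stress-induced HSP70 chaperone, which measured 36.5 and 38.7 CPM in L1 against 16.1 and 16 CPM in C1, and 47.9 and 39.5 CPM in L3 against 28.8 and 30.2 CPM in C3, a difference of 0.66 ± 0.15 (adjusted p = 0.0086). Zbtb12, a zinc finger protein, had a difference of 0.69 ± 0.14 (adjusted p = 0.0048), and Hmgn5, a nucleosome-binding protein, 0.32 ± 0.11 (adjusted p = 0.049); the call of Hmgn5 was lost when any 1 of the 8 libraries was left out (adjusted p up to 0.20). Drap1, a transcriptional corepressor, rose more in segment 3, at -0.34 ± 0.10 (adjusted p = 0.028), and lost its call without any 1 library except C3 of batch 3097 (up to 0.22).

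The named genes that fell more in segment 3 were low outside C3. Pgk2, the phosphoglycerate kinase of sperm, measured 0.117 and 0.028 CPM in L1 against 0.576 and 0.775 CPM in C1, and 0.0524 and 0 CPM in L3 against 12.2 and 7.85 CPM in C3, and C3 exceeded L3 by a ratio of 386 (106 to 3190). Gapdhs, the sperm form of glyceraldehyde-3-phosphate dehydrogenase, measured 0.187 and 0.084 CPM in L1 against 1.08 and 0.864 CPM in C1, and 0.183 and 0.303 CPM in L3 against 13.8 and 8.69 CPM in C3, a difference of 2.66 ± 0.59 (adjusted p = 0.0085). Cabs1, a calcium-binding protein of spermatids, had no count in L3 and was at least 96.8-fold lower there than in C3, while C1 exceeded L1 by a ratio of 33.7 (8.95 to 284). Iqcf3 also had no count in L3, at least 64.8-fold lower than in C3, and C1 exceeded L1 by 12.1 (3.81 to 61.7). C3 was the highest group in each. Fhl4 had a difference of 2.67 ± 0.45 (adjusted p = 0.0024). The calls of Gapdhs and Pgk2 were lost without L1 of batch 3017 (adjusted p 0.13 and 0.25). Those of Cabs1 and Iqcf3 were lost without any library of batch 3017 or L3 of batch 3097, and that of Cabs1 also without C1 or C3 of batch 3097; the adjusted p then reached 1.0.

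Some genes with large fitted differences missed the call, and their segment 3 libraries differed widely between batches. They were named after their values were seen. Slc7a11, the cystine-glutamate exchanger, measured 2.94 and 3.67 CPM in L1 against 104 and 96.8 CPM in C1, and 159 and 9.08 CPM in L3 against 0.795 and 2.34 CPM in C3. Its L3 library of batch 3017 was far above that of batch 3097, and C1 was high in both batches. The fitted difference was -9.90 ± 2.86 (adjusted p = 0.052). Defb21, a beta-defensin, had -9.29 ± 2.79 (adjusted p = 0.058), Slc6a13, a transporter of GABA and taurine, -7.94 ± 2.41 (adjusted p = 0.054), and Defb30 -7.08 ± 3.05 (adjusted p = 0.14). DESeq2 called all 4. A minimum count of 50 gave a call to Slc7a11, Defb21 and Slc6a13, leaving out the batch block to Slc7a11 and Defb21, and a fit of the 8 libraries alone to Defb21 and Slc6a13. None was called when any 1 library was left out. Rnase9, another secreted ribonuclease-like protein, measured 3150 and 1010 CPM in L3 and 8.97 and 310 CPM in C3, so the libraries of each group were apart by severalfold. The part of these spreads in the segment 3 counts was not tested.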

How the data were processed

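Libraries were directional polyA libraries from 500 ng of total RNA, each a pool of 2 mice, per the labels' protocols. Reads were processed with Trim Galore 0.6.0, cutadapt, FastQC and STAR 2.7.0e against GRCm38 (mm10), per the submitters' processing notes; the sources used here name no counting tool, strand setting or annotation release. The deposited values are raw gene counts of 55536 gene IDs, 1 table per sequencing batch; the IDs match GENCODE M21, which gave symbols and coordinates.

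The counts were fitted in R 4.3.3 with edgeR 4.0.16 (limma 3.58.1): TMM factors, filterByExpr with a minimum count of 10, a group-means model of all 12 libraries with batch as a block, and glmQLFTest, two-sided. The batch is the shared sequencing run that the series' design text gives; deviations of libraries of 1 batch correlated at 0.08 to 0.55 between groups. Standard errors were derived from fold changes and F statistics and are unstable where a group is near 0. DESeq2 1.42.0, other filters, library totals, no block and leaving out each library were alternatives. The fold floor was 3 counts per library, and intervals and floors cover counting error only.

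Named genes had a mean of at least 5 CPM in 1 group and 1 sign of the difference in both batches. Symbols of the clone type were left out by a pattern of letters and digits, which did not match CAAA01118383.1. Taken were the 8 highest and 8 lowest differences (opposite), the 8 and 8 largest segment 1 effects, the 5 and 5 largest segment 3 effects, and the 3 and 3 largest differences each way (same direction). The middle 2 classes had the other effect bounded. A few genes that this rule or a list would name are not reported here. List members could be named whatever their result, and 13 other genes were named after their values were seen. Members and lists were chosen with earlier results of these data known. Close paralogs and overlapping or antisense genes may share reads.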

Additional observations from a re-analysis of the deposited data

Results flagged for a closer look

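The genes named by rule, 52 in all, were taken from those whose difference of the ligation effect between segment 1 and segment 3 passed the test of the difference itself and had 1 sign in both batches, so neither property is a result. The values are fitted log2 differences. Among genes with opposite effects the difference was -1.17 for CAAA01118383.1, -1.10 for Cirbp, -0.86 for Crebzf, -0.82 for Hdgfl2, -0.79 for Hnrnpul2, -0.76 for Sart1, -0.66 for Trim41, 1.05 for Eml6, 1.05 for Ndrg1, 1.07 for Armcx2, 1.48 for Fmod, 1.62 for Bcl2l14, 1.81 for Ppp1r36, 1.84 for Sord and 3.14 for Wbscr25. Among genes changed in segment 1 only it was -5.02 for Abcb9, -4.75 for Kctd17, -4.80 for Tas1r1, -4.87 for Slc29a4, -4.75 for Vldlr, -5.09 for Mfsd2a, -5.24 for Jaml, -4.97 for Bmp7, 4.22 for P2rx2, 4.36 for Kcnmb4, 4.32 for Ptgds, 4.59 for Nme4, 4.74 for BC016579, 5.15 for Cfap161 and 6.18 for Fam196b. Among genes changed in segment 3 only it was 3.48 for Tcp11, 2.98 for Ccdc136, 1.43 for Azin2, 1.34 for Fam149a, 1.02 for Akr1c19, -0.57 for Zfp622, -0.83 for Ccdc9, -0.69 for Prr15, -0.59 for Fbxw4 and -1.20 for Gar1. Among genes changed in the same direction in both segments and more in segment 1 it was -8.20 for Tecta, -6.46 for Rnase10, -4.19 for Pnp2, 0.32 for Hmgn5, 0.66 for Hspa1a and 0.69 for Zbtb12. Among genes changed in the same direction in both segments and more in segment 3 it was -0.34 for Drap1, 2.66 for Gapdhs, 2.67 for Fhl4, 5.30 for Pgk2, 6.15 for Cabs1 and 6.97 for Iqcf3. The fitted values of Tecta, Pgk2, Cabs1 and Iqcf3 rest on a few counts in ligated libraries and are no bounds. What lies behind these differences was not tested.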

How the results depend on the processing

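DESeq2 gave more segment 3 calls, 649 (185 higher, 464 lower), and with them 75 opposite genes, 148 in segment 3 only and 82 in the same direction; it shared 17 of the 18 opposite genes that rose in segment 1 and all 9 that fell. Library totals gave 1815 genes with a lower difference. Without the batch block, the unpaired fit gave 4430 differences, 17 genes higher in segment 3 and 13 opposite genes. At an adjusted p under 0.01 in each test 1 opposite gene was left, and 10 were at least 2-fold in each segment. Leaving out 1 library at a time gave 3835 to 5006 differences (2053 to 2604 higher, 1701 to 2402 lower), 3491 to 4465 genes in segment 1 only, 13 to 106 in segment 3 only, 0 to 74 opposite and 11 to 33 in the same direction. Segment 1 calls were 6250 to 9191 (3138 to 4590 higher, 3112 to 4641 lower) and segment 3 calls 70 to 395 (3 to 91 higher, 65 to 304 lower). A left-out library leaves a group with 1 sample, assumed to vary like the others. For named genes, 788 gene-by-setting differences kept direction and call, 45 of uncalled genes stayed uncalled, 66 lost the call, 11 gained it and 0 reversed. The cause was not tested. Without the block, 6 of the 61 called genes named by rule or after their values were seen lost the call of the difference, namely Akr1c19 (adjusted p = 0.074), Zfp622, Prr15, Fbxw4, Hmgn5 and Drap1, as did 46 of 270 other called list members, Prm1 and Tssk1 among them. The differences of genes near 0 in a group rest on a few counts.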

Other observations

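Segment 2, which lies between the compared segments, entered the fit and shared no library with either effect, and its own ligation effect (L2 over C2, 2 libraries each) can be set beside them for the genes described above; these genes were chosen after their values were seen. The sperm genes Tcp11 and Odf1 fell in segment 2, by effects of -4.20 ± 0.30 (adjusted p = 0.00018) and -9.71 ± 0.53 (adjusted p = 0.00018) in edgeR's quasi-likelihood test; Tcp11 averaged 0.692 ± 0.0839 CPM in L2 and 12.9 ± 3.24 CPM in C2 (SD, n = 2 each). Etv5 and Dusp6 of the ERK pathway fell as well, by effects of -6.96 ± 1.04 (adjusted p = 0.018) and -2.74 ± 0.45 (adjusted p = 0.02). Dusp6 averaged 5.96 ± 1.17 CPM in L2 and 43.5 ± 32.4 CPM in C2 (SD, n = 2 each).

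Sord, with a rise in segment 1 and a fall in segment 3, fell in segment 2, with an effect of -0.71 ± 0.13 (adjusted p = 0.013). Cirbp, with the reverse pattern, had an uncalled segment 2 effect of 0.09 ± 0.09 (adjusted p = 0.58). Ptgds and Clu, which rose in segment 1 only, had uncalled segment 2 effects of 1.17 ± 0.30 (adjusted p = 0.052) and 2.01 ± 0.58 (adjusted p = 0.078). Jaml, Abcb9, Vldlr and Bmp7, which fell in segment 1 only, had uncalled segment 2 effects of 0.55 ± 0.19 (adjusted p = 0.097), -0.50 ± 0.25 (adjusted p = 0.24), 0.40 ± 0.27 (adjusted p = 0.37) and -0.17 ± 0.25 (adjusted p = 0.7). The difference between the segment 2 effect and either of the others was not tested.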
